A study of Drosophila melanogaster with 3 samples.

Results

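Genes for the translation initiation factors of Drosophila melanogaster were examined for binding of Grain, a zinc-finger transcription factor of the GATA family. The genes were taken by name alone, as every protein-coding gene of the Ensembl BDGP6 annotation with a symbol that starts with eIF and a number. The rule found 44 of the 13945 protein-coding genes on the main chromosome arms. The data come from chromatin immunoprecipitation with sequencing (ChIP-seq) of embryos aged 0 to 24 h, both sexes mixed, in 3 biological replicates. All embryos belonged to a transgenic line that stably makes Grain fused at its C-terminus to GFP, and the chromatin was recovered with an antibody to GFP. There was 1 group, no second condition, and the file read as the control behind the peak calls was not analysed here. Whole embryos mix many cell types, so binding in few cells and weak binding in many cannot be told apart.

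Initiation factors bring the ribosome to the start codon of a messenger RNA. The eIF4 proteins bind the cap and unwind the leader, eIF2 delivers the initiator tRNA and is recharged by its exchange factor eIF2B, and eIF3 is the scaffold on the small subunit. The small factors eIF1 and eIF1A act in scanning and start-site choice, eIF5 and eIF5B act in GTP hydrolysis and subunit joining, and eIF6 keeps the large subunit from joining too early. These genes are active in nearly all growing cells, apart from some duplicated copies that are known chiefly from the testis. GATA factors bind the core GATA with A or T before it and A or G after it, searched here on both strands as the hexamer AGATAA, the hexamer AGATAG, the hexamer TGATAA and the hexamer TGATAG.

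The sequences at the summits of the strongest initiation factor peaks are shown first, since the peaks divide into those with and those without this hexamer. A summit is the position of highest signal in a peak, and each line gives the plus strand of dm6, 5' to 3', for the 101 bases centred on it, as read from the RefSeq genome of the same release. Capitals mark GATA hexamers (those on the minus strand start with C or T and go on with TATC) and, in eIF1 alone, also the DREF element TATCGATA of housekeeping promoters. These are the 6 strongest with a hexamer among the arms from which sequence is shown.
eIF1 chr3L:3223003-3223103: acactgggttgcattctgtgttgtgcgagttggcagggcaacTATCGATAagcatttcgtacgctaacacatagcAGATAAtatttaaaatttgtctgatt
eIF5B chr3L:3432827-3432927: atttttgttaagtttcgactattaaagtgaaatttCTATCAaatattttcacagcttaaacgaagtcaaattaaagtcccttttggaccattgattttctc
eIF1A chr3R:18281121-18281221: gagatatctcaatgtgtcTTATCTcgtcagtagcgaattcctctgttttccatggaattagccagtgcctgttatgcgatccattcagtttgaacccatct
eIF5B chr3L:3435689-3435789: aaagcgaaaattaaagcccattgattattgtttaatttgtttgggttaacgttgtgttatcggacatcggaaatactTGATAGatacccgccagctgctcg
eIF4EHP chr3R:24099518-24099618: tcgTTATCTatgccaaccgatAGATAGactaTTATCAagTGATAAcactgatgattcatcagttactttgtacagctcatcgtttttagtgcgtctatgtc
eIF5B chr3L:3448437-3448537: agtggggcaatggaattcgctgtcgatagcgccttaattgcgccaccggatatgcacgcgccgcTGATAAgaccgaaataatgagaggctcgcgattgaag

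Apart from the eIF6 peak, whose sequence is not shown, the strongest peaks without a hexamer were at eIF2Bbeta and upstream of eIF4EHP. At eIF2Bbeta the 88 bases outside annotated untranslated regions are given. No capitals are marked in them. The window at eIF3h, next in strength, lies mostly in an untranslated region and is not printed.
eIF2Bbeta chrX:2703853-2703940: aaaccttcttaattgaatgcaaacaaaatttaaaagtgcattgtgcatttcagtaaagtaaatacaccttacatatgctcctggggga
eIF4EHP chr3R:24109131-24109231: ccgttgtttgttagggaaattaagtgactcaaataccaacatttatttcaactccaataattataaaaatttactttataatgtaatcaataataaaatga

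Grain peaks were found at 10 of the 44 initiation factor genes (22.7%, 95% Wilson interval 12.8 to 37.0), close to the 25.5% of all protein-coding genes. The count covers summits between 1000 bp upstream of a gene and its end, in the authors' optimal list, which holds the 6580 pooled peaks of highest signal. The 10 genes were eIF1, eIF1A, eIF5B, eIF6, eIF2Bbeta, eIF3c, eIF3h, eIF4A, eIF4E1 and eIF4EHP. They held 18 summits, of which eIF5B had 5, eIF4EHP had 3, eIF1 and eIF1A had 2 each, and the other genes had 1 each. Initiation factor genes had a median length of 2967.5 bp including the upstream part, close to the 3166 bp of all protein-coding genes. Among genes between the quartiles of the initiation factors' lengths, 2393 to 4867.8 bp, 4 of 22 initiation factor genes and 21.5% of all genes held a summit. No test was made of these differences, and the members' intervals hold the background shares. Intervals here and below cover counting error only.

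Agreement between replicates was checked by taking the 6580 strongest peaks of each replicate, as many as the optimal list holds. Replicate 1 had such a summit at 9 initiation factor genes (20.5%, background 26.0% of all genes). Replicate 2 had one at 11 (25.0%, background 28.3%) and replicate 3 at 8 (18.2%, background 24.7%). The mean was 9.33 of the 44 genes ± 1.53 (SD, n = 3). The background mean, as a percentage of all protein-coding genes, was 26.3% ± 1.82 (SD, n = 3). In all 3 replicates 7 of 44 genes (15.9%) held one, and the background was 19.8%. These 7 were eIF1, eIF1A, eIF5B, eIF6, eIF2Bbeta, eIF3h and eIF4EHP. A gene counted whichever of its peaks met the threshold. No optimal peak of eIF4EHP was among the 6580 strongest of all 3 replicates. Its best rank came from the upstream peak in replicates 1 and 3 (2857 and 2848) and from an intronic peak in replicate 2 (1069). With the same optimal peak required in all 3 replicates, 6 genes remained (background 19.0%). The weaker peaks of eIF4A, eIF4E1 and eIF3c met this threshold in 2, 2 and 1 replicates. In replicate 2 alone, eIF2A (best rank 5623) and eIF3m (best rank 6355) were also among the strongest peaks.

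**Figure D1:**
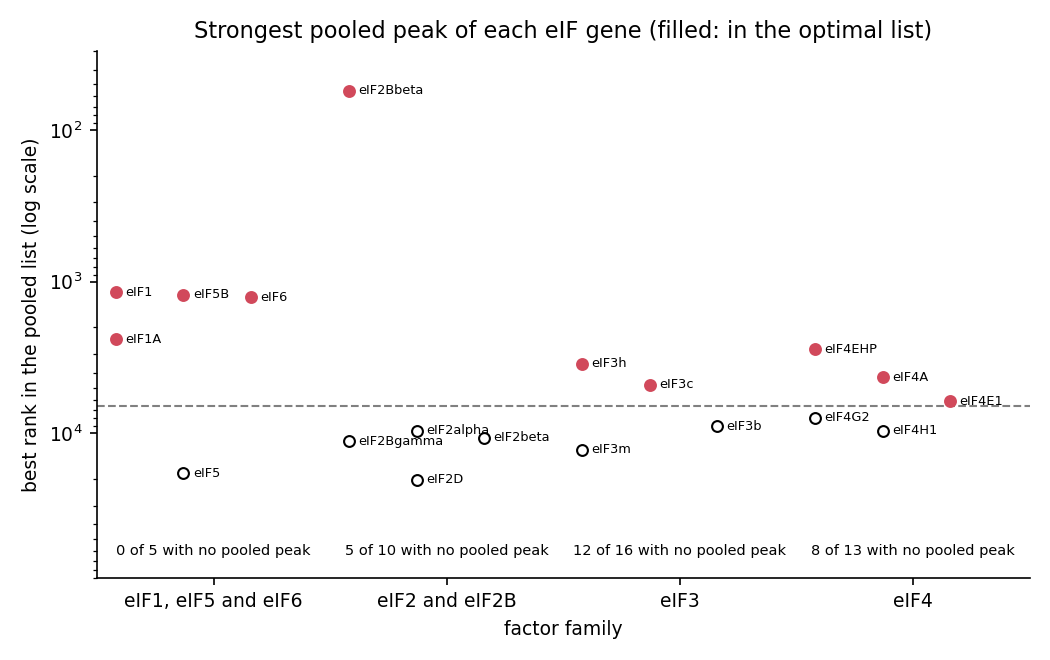
Each point is an initiation factor gene, at the best rank of its summits in the pooled list of 30000 peaks (log axis, 1 is strongest), by factor family. Filled points are the 10 genes in the optimal list, above the dashed line at rank 6580. Open points are the 9 genes with weaker pooled peaks only, and the text gives the genes with none. The authors label the pooled list as peaks and background.

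By factor family, and against the 25.5% of all protein-coding genes, an optimal summit was held by 4 of 5 genes of the small and joining factors (interval 37.6 to 96.4%). In the eIF2 and eIF2B family this was 1 of 10 genes (1.79 to 40.4%), among the eIF3 subunits 2 of 16 (3.5 to 36.0%), and in the eIF4 family 3 of 13 (8.18 to 50.3%). The families are small, and they were not compared by a test. In the first family eIF5B is long, at 32320 bp, and the summits of eIF5B and eIF1A were all intronic.

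The strongest peak of all lay upstream of eIF2Bbeta (FBgn0024996), which encodes a subunit of the exchange factor. It spanned chrX:2703709-2704059 and had a signal of 887 on the authors' scale, which is set within each list and is used here only for ranking. Its rank was 60 in replicate 1, 55 in replicate 2 and 57 in replicate 3, a mean of 57.33 ± 2.52 (SD, n = 3), so the 3 replicates placed it almost alike. The summit lay 681 bp upstream of eIF2Bbeta and 38 bp upstream of Ugalt, the gene of a UDP-galactose transporter, which starts 719 bp away on the opposite strand. Of the 4 other subunits of eIF2B, eIF2Bgamma had weak pooled peaks (best rank 11261), and eIF2Balpha, eIF2Bdelta and eIF2Bepsilon had none. The 3 subunits of eIF2 itself held no optimal summit. Their best pooled ranks were 9644 for eIF2alpha, the subunit phosphorylated in stress, and 10681 for eIF2beta, and eIF2gamma had no pooled peak. For eIF2A and eIF2D, which act in other routes of initiation, the pooled list held no peak and a peak at rank 20251.

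Upstream of eIF1 (FBgn0035423), a factor of start codon selection, there was a pair of optimal summits 288 and 87 bp from its start. RpL28, a ribosomal protein gene, starts 381 bp away on the opposite strand, and the stronger summit lay 93 bp upstream of RpL28. That peak (chr3L:3222923-3223119, signal 315) ranked 1214, 1675 and 1682 in replicates 1, 2 and 3, a mean of 1524 ± 268 (SD, n = 3). It was the only initiation factor peak with both a GATA hexamer and the DREF element within 50 bp of the summit. The weaker peak (signal 117) had neither motif. The strongest replicate peak that overlaps it was the same as for its neighbour. The nearest replicate summits to it ranked 3741 in replicate 1 and 6081 in replicate 3, and in replicate 2 the nearest lay 198 bp away.

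The 2 summits of eIF1A (FBgn0026250), the partner of eIF1 in scanning, lay in an intron of 6552 bp. The gene CG7142 is nested within eIF1A. The stronger (chr3R:18280941-18281400, signal 215) carried a hexamer, lay 1649 bp upstream of CG7142 and ranked 1981, 2174 and 3309 (mean 2488 ± 718, SD, n = 3). The weaker (signal 123) lay 186 bp upstream of CG7142, carried 2 hexamers and ranked 6040, 11290 and 5086, lower in replicate 2 than in the others. Neither was near the 2 annotated starts of eIF1A, from which they lay 6473 and 5010 bp downstream.

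The gene with the most summits was eIF5B (FBgn0026259), which encodes the GTPase of subunit joining. Its body of 32320 bp held 5 optimal and 24 pooled summits. All 5 optimal summits were intronic, in 3 introns and over a stretch of 17188 bp, and the nearest of them to a start of eIF5B was 12116 bp away. For 4 of the 5, the nearest protein-coding TSS (transcription start site) was that of sty, which encodes Sprouty, an antagonist of growth factor receptor signalling, 6364 to 12500 bp away. The strongest (chr3L:3432733-3432991, signal 310) ranked 1085, 1654 and 1538, a mean of 1426 ± 301 (SD, n = 3). The others had signals of 184, 155, 153 and 129. Hexamers were present at 3 of the 5 summits, with signals of 310, 184 and 153. The peak of signal 153 held its place in every replicate, at ranks 4144, 4711 and 4259, whereas the peak of signal 184 ranked 2133, 6030 and 4760.

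The peak of eIF6 (FBgn0034915), whose product holds back the large ribosomal subunit, lay 138 bp upstream of its start and inside the neighbouring gene ytr. It had a signal of 304 and ranked 1937, 975 and 1230 (mean 1381 ± 498, SD, n = 3), without a hexamer. The fifth gene of this family, eIF5, which stimulates GTP hydrolysis by eIF2, had no optimal summit and a best pooled rank of 18439.

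Of the 16 genes for eIF3 subunits, eIF3h and eIF3c held 1 optimal summit each. The eIF3h summit lay in its 5' untranslated region, 29 bp from a start, with signal 170 and ranks 2781, 5427 and 4273 (mean 4160 ± 1330, SD, n = 3). The eIF3c summit lay 112 bp upstream, with signal 139 and ranks 3593, 8612 and 6807, so that only replicate 1 had it among its strongest 6580. Weaker pooled peaks were found at eIF3b (best rank 9027, with ranks 12449, 8967 and 6949 in the replicates) and eIF3m (best rank 12869). The remaining 12 genes, for the subunits a, d, e, f, g, i, j, k and l, had no pooled summit. They include eIF3a, for the largest subunit of the scaffold.

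In the eIF4 family the summits were at the helicase gene eIF4A, the cap-binding gene eIF4E1 and eIF4EHP, whose product binds the cap and represses translation. The eIF4A peak (chr2L:5982286-5982745, signal 150) lay 78 bp upstream of the nearest of its 3 starts and inside the 5' untranslated region of a longer transcript, and ranked 3947, 3268 and 9110. The eIF4E1 peak (chr3L:9402200-9402659, signal 116) lay 30 bp from a start and was near the lower limit of the optimal list, at rank 6134 of 6580. Its ranks in replicates 1, 2 and 3 were 9068, 5649 and 5915. Neither had a hexamer at its summit, and each missed the 6580 strongest of 1 replicate.

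The gene eIF4EHP (FBgn0053100) spans 45884 bp, holds Syx1A, a syntaxin gene of neurotransmitter release, and CG10694 within its body, and had 3 optimal and 18 pooled summits. One peak lay 221 bp upstream of eIF4EHP and 155 bp upstream of CG18428, which starts 376 bp away on the opposite strand (signal 195; ranks 2857, 7622 and 2848). The second lay in an intron of 33231 bp and had 4 hexamers within 50 bp of its summit, the most of any initiation factor peak. This peak, of signal 168, had the largest coefficient of variation of rank of the 18, 69.8%, at 7418, 1069 and 5505 in replicates 1, 2 and 3 (mean 4664 ± 3260, SD, n = 3). The other intronic summit (signal 116) ranked 7816, 8093 and 6892 and was the only member peak outside the 6580 strongest of every replicate.

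**Figure D2:**
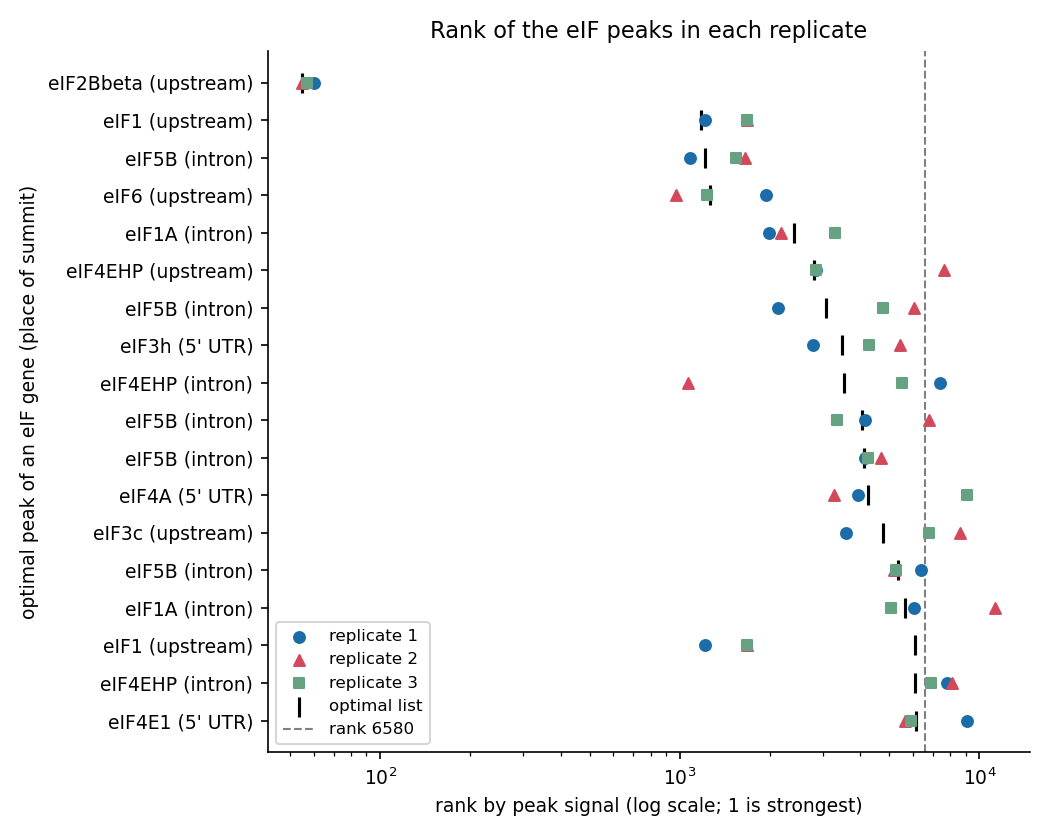
Rank of each of the 18 optimal peaks of initiation factor genes in replicates 1, 2 and 3 (coloured points) and in the optimal list (black bars), on a log axis, with a dashed line at rank 6580. The replicates coincide at eIF2Bbeta (60, 55 and 57) and lie far apart at the intronic eIF4EHP peak (7418, 1069 and 5505); each replicate rank is that of the strongest overlapping peak.

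As a group the member peaks were of middling strength. Their median signal was 161, against 176 for all optimal peaks, and 7 of the 18 were in the stronger 3290. In rank, 10 of the 18 peaks (55.6%, 33.7 to 75.4) were among the 6580 strongest of all 3 replicates, against 67.8% of all optimal peaks. Another 6 were so in 2 replicates, 1 in 1 replicate and 1 in none. The median coefficient of variation of rank over the replicates was 30.4% for these peaks and 35.5% for all optimal peaks. These counts hold the same eIF1 replicate peaks 2 times, since both eIF1 peaks take their ranks from them. Without the weaker eIF1 peak the values were 9 of 17 (52.9%, 31.0 to 73.8) and 31.9%.

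Summits lay either near a TSS or in introns over 1000 bp from any TSS, with none between. Over all optimal summits 39.7% lay within 500 bp and 51.2% within 1000 bp, so few lay between there as well. Of the 18, 10 (55.6%, 33.7 to 75.4) lay within 500 bp of a TSS of any gene, against 39.7% of all optimal summits and 45.3% of those assigned to a protein-coding gene. All 10 lay within 250 bp, and the other 8 (44.4%) lay over 1000 bp from any TSS, in introns of eIF5B, eIF4EHP and eIF1A. For 11 of the 18 summits the nearest protein-coding TSS was that of another gene, namely sty, CG7142, Syx1A, CG18428, RpL28 or Ugalt. Counting only summits within 500 bp of a gene's own TSS, 7 of 44 initiation factor genes held a peak (15.9%, background 17.5%). With the further condition that this TSS was the nearest of all protein-coding ones, 6 of 44 did (13.6%, background 14.3%). Those 6 genes were eIF1, eIF6, eIF3c, eIF3h, eIF4A and eIF4E1.

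Neighbouring starts were common at the genes with peaks. For 19 of the 44 genes the nearest TSS of another protein-coding gene lay within 1000 bp on the opposite strand, and 8 of these 19 held an optimal summit (42.1%, 23.1 to 63.7, background 31.3% of such genes). Of the other 25 genes, 2 did, eIF6 and eIF4E1 (8.0%, 2.22 to 25.0, background 22.5%). In 2 of the 8, eIF1A and eIF5B, the summits lay in introns and far from these paired starts. The difference between the groups of genes was not tested.

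The GATA hexamer was found within 50 bp of 7 of the 18 summits (38.9%, 20.3 to 61.4), against 4 of 18 (22.2%, 9.0 to 45.2) in equal windows shifted by 500 bp. Over all optimal peaks the shares were 46.2% and 18.5%. Within 500 bp of a TSS, 2 of 10 member summits carried it (20.0%, 5.67 to 51.0, against 39.4% of all such optimal summits). Farther away, 5 of 8 did (62.5%, 30.6 to 86.3, against 50.8%). The intervals overlap, and no test was made. Among the 8 summits within 500 bp of a member's own TSS, only the stronger eIF1 peak had a hexamer. Among member summits in the top 6580 of replicates 1, 2 and 3, 26.7%, 31.2% and 37.5% carried it, a mean of 31.8% ± 5.42 (SD, n = 3).

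**Figure D3:**
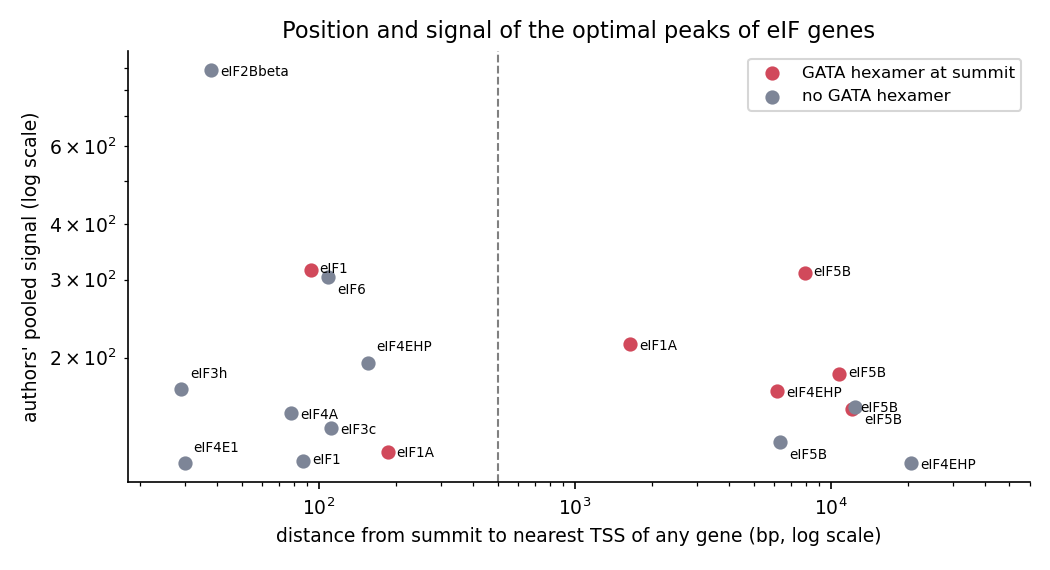
Distance from each of the 18 member summits to the nearest TSS of any gene (bp, log axis) against the authors' signal in the pooled and optimal lists (log axis), coloured by presence of a GATA hexamer within 50 bp; the dashed line is at 500 bp. Of the 10 summits left of the line 2 carry the hexamer, and of the 8 on the right 5 do.

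Other motifs were rare at these summits. The DREF element TATCGATA was at 1 of 18 summits (5.56%, against 1.34% of all optimal peaks), the E box CAGCTG at 1 (5.56%, against 4.76%), and the GAGA letters GAGAG at 3 (16.7%, against 15.0%). The M1BP element GGTCACAC was at none of the 18, which allows a share of up to 17.6% by the Wilson interval, and at 0.76% of all optimal peaks. The DREF element contains the letters GATA, but with C before them, so it holds no GATA hexamer.

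The motifs were also counted in the promoters themselves, with or without a peak, in windows longer than those at summits, so raw shares from both kinds of window are not comparable. From 250 bases before to 50 after the start of the canonical transcript, 12 of the 44 initiation factor promoters held the DREF element (27.3%, 16.3 to 41.8), against 8.94% of all protein-coding promoters. The GATA hexamer was in 21 of 44 (47.7%, 33.8 to 62.1), against 46.8% of all, so these promoters hold it about as often as others. The M1BP element was in 6 (13.6%, against 7.54%) and GAGAG in 7 (15.9%, against 30.2%). Among the 7 genes with a summit within 500 bp of an own TSS, 2 promoters held the GATA hexamer and 3 held the DREF element, and among the other 37, 19 (51.4%) and 9 (24.3%). Over all protein-coding genes, 53.4% of promoters with such a summit and 45.4% of the others held the GATA hexamer, and 11.0% and 8.5% held the DREF element. With 7 genes the split was not tested. The eIF3b promoter held 4 hexamers and had no optimal summit. A motif match is not a measured binding site.

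Below the optimal list, the pooled list of 30000 peaks held summits at 19 of the 44 genes (43.2%, 29.7 to 57.8), against 47.4% of all protein-coding genes. The authors label the pooled list as peaks and background, so a weaker entry in it is not by itself shown to be Grain binding. They numbered 76, of which 42 were in or near eIF5B and eIF4EHP. The 9 genes with weaker peaks only were eIF5, eIF2D, eIF2alpha, eIF2beta, eIF2Bgamma, eIF3b, eIF3m, eIF4G2 and eIF4H1. The highest of these ranks was 7936 at eIF4G2, a copy of the scaffold that links cap and ribosome, with a signal of 94.4 and replicate ranks of 9639, 10284 and 10119. The eIF3b peak followed at rank 9027 (signal 85.0), and at rank 9644 came a single peak counted for both eIF2alpha and eIF4H1, which point away from each other with the start of CG34015 between them. The eIF2D peak, at rank 20251, had a −log10 q-value of 0.875 and replicate ranks between 14577 and 29308. At eIF5 the best −log10 q-value was 1.07.

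The remaining 25 genes had no summit in the pooled list. Of these, 11 had a summit in some replicate list, 9 of them in replicate 2. Outside eIF2A the best such rank was 10315, at eIF2Bdelta in replicate 2. No matching share was taken over all protein-coding genes without a pooled summit. Whether the larger count in replicate 2 is particular to initiation factor genes was therefore not tested. The 14 genes with none in any list were eIF2Balpha, eIF2gamma, eIF3a, eIF3d2, eIF3e, eIF3f1, eIF3g1, eIF3g2, eIF3i, eIF3j, eIF3l, eIF4B, eIF4E3 and eIF4H2. From the start of these 25 genes, the nearest optimal summit was between 1365 bp away, at eIF3d1, and 4912598 bp away, at eIF4B near the centromere of chromosome 3, with a median of 15037 bp. The lists stop at 30000 peaks, so a gene without a summit is not shown to be free of Grain.

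Numbered copies of a factor, those of eIF3d, eIF3f, eIF3g, eIF4E, eIF4G and eIF4H, make up 16 of the genes. Of these, 1 held an optimal summit, eIF4E1 (6.25%, 1.11 to 28.3), and 3 held a pooled summit (18.8%, 6.59 to 43.0). The other 28 genes held optimal summits in 9 cases (32.1%, 17.9 to 50.7) and pooled ones in 16 (57.1%, 39.1 to 73.5). Over all protein-coding genes the shares were 25.5% and 47.4%, and the difference between copies and other genes was not tested. The copies eIF4E3, eIF4E4, eIF4E5, eIF4E6 and eIF4E7 had no pooled peak, whereas eIF4E1 had 3. All of eIF3d1, eIF3d2, eIF3f1, eIF3f2, eIF3g1 and eIF3g2 lacked a pooled peak. The copy eIF4G1 also lacked one, and had a summit in replicate 2 alone, at rank 13223.

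The other genes of translation were read by the same rule, as lists chosen with earlier results of these data known. For each list here and below, the background for a summit in a gene or 1000 bp upstream was the 25.5% of all protein-coding genes. Of 16 regulators of initiation 8 held an optimal summit (interval 28.0 to 72.0%). Their median gene length was 7602.5 bp including the upstream part, against 3166 bp for all protein-coding genes, and no share was taken at matched length. Their strongest peaks were at Lk6, a kinase of eIF4E (signal 624; mean rank 205.7 ± 123, SD, n = 3), at S6k, a kinase downstream of TOR (signal 614; mean rank 194.3 ± 29.7, SD, n = 3), and at cup, whose product binds eIF4E (signal 457), while 4E-T and DENR held none. The S6k peak lay 1231 bp from its own TSS, and the peak in cup lay 264 bp from the TSS of Galt. Elongation and release factors held summits in 4 of 10 cases (40.0%, 16.8 to 68.7), with eEF1gamma, a subunit of the exchange factor of elongation, the strongest (signal 337; ranks 1309, 546 and 1231), followed by eEF5 (signal 201) and the release factor gene eRF1 (signal 121). The genes for the tRNA carrier, eEF1alpha1 and eEF1alpha2, held none. Cytosolic aminoacyl-tRNA synthetases, which charge tRNAs, held them in 4 of 20 cases (20.0%, 8.07 to 41.6), led by AspRS (signal 426), SerRS (signal 205) and GluProRS (signal 189). The summits of AspRS and SerRS lay nearer to the TSS of Lfg (197 bp) and CG17260 (27 bp), while AlaRS and ArgRS held none.

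Ribosomal protein and proteasome genes, 2 larger housekeeping sets, were read in the same way. Cytosolic ribosomal protein genes (symbols of RpL or RpS and a number) held an optimal summit in 48 of 88 cases (54.5%, 44.2 to 64.5). In 42 (47.7%) it lay within 500 bp of an own TSS, against 17.5% of all protein-coding genes. Proteasome subunit genes held one in 5 of 48 cases (10.4%, 4.53 to 22.2). The initiation factors lay between them at 22.7% (12.8 to 37.0), with an interval below that of the ribosomal protein genes and overlapping that of the proteasome genes. RpL7 (signal 569), RpS27 (signal 527) and RpL34b (signal 483) had the strongest ribosomal protein peaks and RpL10 and RpL10Aa none. In the proteasome set Rpn5 (signal 240), Rpn7 (signal 228) and Rpt3 (signal 144) led. The Rpn5 and Rpn7 summits lay nearer to the TSS of Hat1 (151 bp) and AP-2mu (46 bp), the Rpt3 peak had no overlapping peak in replicate 3, and Prosalpha1 and Prosalpha1R held none. No list was tested against another.

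**Figure D4:**
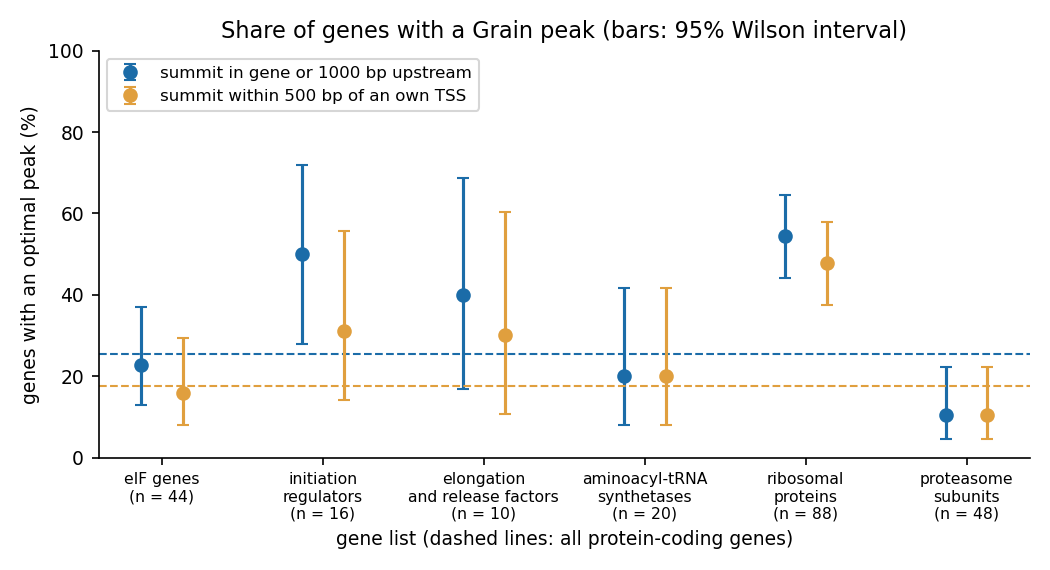
Share of genes with an optimal summit in 6 gene lists (percent, points, with 95% Wilson intervals as bars), by both ways of assigning summits; dashed lines give all protein-coding genes (25.5% and 17.5%). The initiation factor points, at 22.7% and 15.9%, lie near these lines, and the ribosomal protein points, at 54.5% and 47.7%, lie above them.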

How the data were processed

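Grain ChIP-seq was represented by 5 deposited peak lists on dm6, per the text notes deposited with the samples. They were 1 for each replicate, 1 from the pooled alignments, labelled as peaks and background, and the optimal list after the irreproducible discovery rate method. The notes list a further file beside the alignments behind each list, and it was read here as the control. Fragments were of 200 to 800 bp after sonication, per the labels. The sources used here name no aligner or peak caller. Each list holds the authors' signal per peak, on a scale set in that list, and a −log10 q-value that goes no higher than 4.21 in the pooled list. No reads were given, so the depth is unknown. The replicate and pooled lists hold 30000 peaks each, and the optimal list was the 6580 pooled peaks of highest signal (lowest 109.7).

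Coordinates were compared with release 6 of the RefSeq genome, the assembly of dm6, on which no peak ran past an arm's end, and genes came from Ensembl release 115, without transposable elements. Coordinates count from 1. The dm3 lists were not used. All gene symbols in the lists were matched, Tor as mTor. Peaks were ranked by signal within a list, and an optimal peak took the rank of the strongest replicate peak overlapping it by at least 1 bp. Python 3.11.15, numpy 2.4.6, pandas 2.3.3 and scipy 1.17.1 were used, and the assignment and motif code was tested on simulated data. With 1 group, no test between conditions was possible. The genes and gene lists were chosen with earlier results of these data known. Every initiation factor gene is accounted for, and of each other list up to 3 genes with the strongest peaks and up to 2 without are named. Counts by length and by neighbouring starts were added after seeing the data.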

Additional observations from a re-analysis of the deposited data

How the results depend on the processing

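The count of 10 initiation factor genes with an optimal summit fell to 6 with the 3290 strongest optimal peaks, with the gene body alone (0 bp upstream), with peaks found in all 3 replicates, at an overlap of 1 bp or of 50% of the shorter peak, and, in an alternative chosen after seeing the data, with summits at an own TSS that is the nearest within 500 bp. It rose to 19 with the pooled list. All protein-coding genes moved alike, to 15.7%, 15.5%, 19.0%, 18.7%, 14.3% and 47.4%. The 7 genes with a summit in all 3 replicates became 3 with the gene body alone and 17 with all 30000 peaks of each list, while the share of all genes went from 19.8% to 12.2% and 41.8%. With the gene body alone 33.3% of member summits lay within 500 bp of a TSS, against 55.6%. When each peak went only to the nearest protein-coding TSS, 12.5% of 8 member summits carried the hexamer, against 38.9%. With 2000 bp upstream the count was 11 (28.5% of all genes), with eIF3d1, 1365 bp from a summit, as the added gene. The cause of each change was not tested, beyond the fewer or more peaks and bases that each setting counts. When a replicate was left out, the optimal peak had to be found in each remaining replicate. Without replicate 1, 2 or 3 the counts were 8, 7 and 7 genes (20.0%, 20.9% and 20.9% of all genes). These counts compare with the 6 genes (19.0%) with peaks found in all 3 replicates, not with the 10. The small number of summits, 18, limits every share.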
